A study of Danio rerio with 6 samples.

Results

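Histone genes and genes of the DNA replication machinery were followed in whole zebrafish larvae that lacked a working p2ry11 gene and in their wild-type (WT) siblings. The members were chosen by gene name and not by any measured value, and numbered 76 of the 19071 genes listed. Of these, 26 were histone genes and 49 encoded replication factors, with names such as mcm, pola, pold, pole, prim, rfc, orc, gins and rrm, or pcna, cdc6, cdc45, cdt1, gmnn, fen1, lig1, tyms and slbp. The remaining member, mcm3ap, matched by name only, since its product acts in mRNA export. The names poldip2 and poldip3 were left out, and 4 histone names written in capitals were kept. A total of 15 members shared a name with another ID, namely 7 IDs called hist1h4l, 3 called h3f3b.1, 3 called HIST2H2AB and 2 called rrm2, and reads could be split between such near-identical copies in a way that the files do not show.

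Histones package DNA into nucleosomes, whose core holds pairs of H2A, H2B, H3 and H4, while H1 binds the linker DNA between them. Canonical histone mRNAs are made mainly in S phase and end in a stem-loop that is bound by the slbp protein in place of a poly(A) tail, whereas variants such as h2afv and h3f3 have polyadenylated mRNAs and are made through the cell cycle. Before S phase the origin recognition complex (ORC), Cdc6 and Cdt1 load the MCM helicase onto origins. Cdc45 and the GINS complex then activate it, and DNA polymerases alpha, delta and epsilon copy the strands with the clamp PCNA and its loader RFC. Deoxynucleotides come from ribonucleotide reductase (rrm1 and rrm2) and thymidylate synthase (tyms). In a larva of this age, proliferating cells are found in brain, retina, gut and blood-forming tissue.

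RNA sequencing was performed on 3 libraries from p2ry11 mutants and 3 from WT siblings at 3 days post-fertilization (dpf). The mutants were homozygous for a CRISPR/Cas9 frameshift deletion in an early exon, kept as a single founder line, and the controls were their WT siblings. Each library was a pool of whole larvae, so that fewer cells of a type and less RNA per cell cannot be told apart. Values are FPKM, which count fragments per length of transcript and per size of library.

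p2ry11 was listed at 0.707, 0.853 and 1.02 FPKM in the WT sibling libraries and at 0 in all 3 mutant libraries (two-sided exact permutation p = 0.1, the smallest p that 3 against 3 allows). The FPKM of all genes summed to between 443849 and 499493 in the WT siblings and to between 426645 and 434740 in the mutants. WT sibling replicate 3 stood apart, with the highest sum and the lowest median gene (3.81 FPKM, against 4.52 and 4.84 in the other WT siblings and 5.10 to 5.39 in the mutants). Its median difference from the other WT siblings was 0.22 for the histone members, 0.13 for the replication members and -0.12 for all genes (log2 scale). The counts of called genes in all members, in histones, in replication genes and in each list are also given without this replicate. Of the 15 markers of larval tissues (such as lens, pancreas, neurons and blood), none was listed at 0 in any library. Depth is unknown, since FPKM keeps no read counts.

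Histone transcripts were lower in the mutants where they differed, and replication genes moved in both directions. Differences are mutant minus WT sibling on the log2(FPKM + 1) scale, which understates changes of low genes, and a gene was called at a Benjamini-Hochberg adjusted p under 0.05 in limma, adjusted over the 18432 genes tested. Of the 76 members, 73 were tested, because 3 hist1h4l IDs lay under a mean of 0.5 FPKM. In this test 10 members fell and 3 rose. The count of members that fell was 13.7% of those tested, against 3.98% of all genes tested, and the count that rose was 4.11%, against 8.23% of all genes. By other criteria, an unadjusted p under 0.05 and a change of over 1.5 times, 13 members were lower (17.8%, against 4.62% of all genes) and 2 were higher (2.74%, against 15.0%). These criteria left out the called members h1fx, rrm1 and an rrm2 copy, whose changes were smaller. The groups did not overlap for 23 members with every mutant below (31.5%, against 11.7% of all genes) and for 15 members with every mutant above (20.5%, against 35.0%).

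The split between both directions depended on scaling and on WT sibling replicate 3. The median difference of all genes was 0.16, so that member medians are also given relative to it. After rescaling to TPM, 5 members rose (6.85%, against 9.59% of all genes) and 9 fell (12.3%, against 2.85%). After median-of-ratios scaling 1 rose (1.37%, against 3.62% of all genes) and 12 fell (16.4%, against 5.70%). The rise of rrm1 and of an rrm2 copy was not called after median-of-ratios scaling. Without WT sibling replicate 3 all 13 calls remained and 28 members were called, 11 higher and 17 lower, while 20.1% of all genes were then called higher and 8.11% lower. Of the 13 calls, 10 remained without WT sibling replicate 2. Without WT sibling replicate 1, mutant replicate 1 or mutant replicate 2, 2 remained, and without mutant replicate 3, 1 remained. In the fits that kept 1 or 2 calls, 117 to 215 of all genes were higher and 76 to 162 were lower.

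Among the histones, 6 of 23 tested members fell in limma (26.1%, against 3.98% of all genes) and 0 rose (8.23% of all genes did). At an unadjusted p under 0.05, 0 histones were higher, a limit for which the share of all genes was not computed. Their median difference was -0.36 (-0.52 relative to all genes), and 2 of 23 had a positive difference (8.70%, against 68.9% of all genes tested). In 12 histone members every mutant lay below every WT sibling, in 0 every mutant lay above, and in 11 the groups overlapped. The shares over all genes were 11.7% with every mutant below and 35.0% with every mutant above. Without WT sibling replicate 3, 10 histones were lower (43.5%, against 8.11% of all genes). In that fit 1 histone, h2afva, was higher (4.35%, against 20.1% of all genes).

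The summed FPKM of all 26 histones was 4262, 4162 and 5074 in WT sibling replicates 1 to 3 and 3438, 3455 and 3437 in the mutants. All mutants therefore lay below all WT siblings, and the sums averaged 4499 ± 500 in the WT siblings and 3444 ± 10.2 in the mutants (SD, n = 3 each). As a share of each library's total FPKM, the histones held 0.967% ± 0.0427 in the WT siblings and 0.799% ± 0.00771 in the mutants. The 10 histones with a mean above 100 FPKM made up 94.1% to 95.5% of this sum in each library. These were mainly linker histones and replacement variants, whereas 13 histone members had a mean under 5 FPKM.

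**Figure D1:**
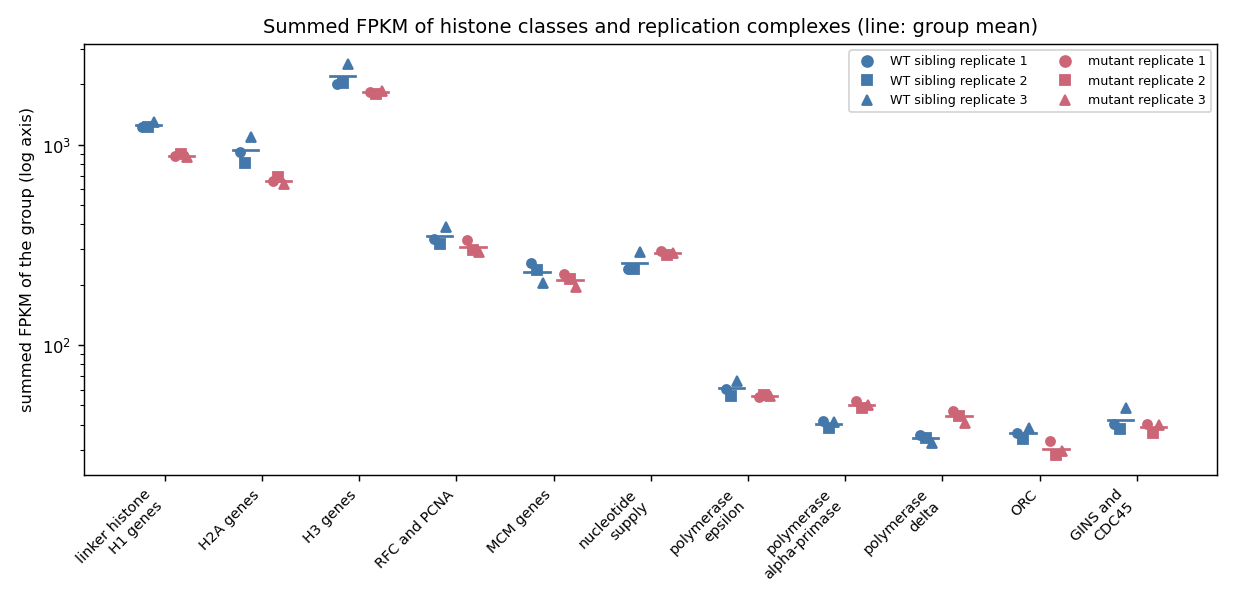
Summed FPKM of the H1, H2A and H3 genes and of replication genes grouped by complex or function, in each library (log axis, points are libraries, lines are group means). For H1, mutant sums lay between 864 and 897, under the lowest WT sibling sum of 1228. The MCM sums overlapped between the groups, and the polymerase alpha-primase sums were higher in every mutant. Sums over all histone or all replication members are not drawn.

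Of the 3 H1 linker histones, 2 fell. histh1l, a linker histone named for its likeness to H1, was measured at 697, 658 and 659 FPKM in the WT siblings and at 319, 338 and 316 FPKM in the mutants. The mutant values were 2.07-fold lower, and the groups were far apart compared with their spread (log2 difference -1.05, SE 0.0868, adjusted p = 0.00183). This call was kept whichever library was left out. h1fx, a variant linker histone, had 80.4, 80.7 and 93.8 FPKM in the WT siblings and 58.2, 60.9 and 61.4 FPKM in the mutants, so that it also fell without overlap (log2 difference -0.49, SE 0.0884, adjusted p = 0.0205). h1f0, the replacement linker histone of resting and differentiated cells, averaged 494.2 ± 42.4 FPKM in the WT siblings and 494.6 ± 6.48 FPKM in the mutants (log2 difference 0.0047, 95% interval -0.23 to 0.23). The sum of the H1 members ran from 1228 to 1291 FPKM in the WT siblings and from 864 to 897 FPKM in the mutants.

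Within the H2A family 2 of 8 members fell. h2afvb, which encodes a copy of the H2A.Z variant found at promoters, had 636, 539 and 751 FPKM in the WT siblings and 386, 425 and 387 FPKM in the mutants. Every mutant lay under every WT sibling (log2 difference -0.67, SE 0.136, adjusted p = 0.0263). h2afva, the paralog of h2afvb, had group means of 105.6 ± 29.9 and 104.8 ± 3.65 FPKM and overlapped (log2 difference 0.023, 95% interval -0.40 to 0.44).

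h2afx, the H2A variant that is phosphorylated beside DNA double-strand breaks, had 28.9, 31.9 and 52.5 FPKM in the WT siblings and 20.3, 12.5 and 12.8 FPKM in the mutants. WT sibling replicate 3 was the highest and mutant replicate 1 the highest of its group, and the groups did not overlap (log2 difference -1.24, SE 0.262, adjusted p = 0.0296). h2afy2, a macroH2A variant, averaged 149.7 ± 6.93 and 136.1 ± 7.88 FPKM and was not called (adjusted p = 0.271). The 3 HIST2H2AB copies and HIST1H2BA, the H2B member, had group means between 0.559 and 2.17 FPKM and overlapped. hist2h2l, whose name does not say which arm of H2 it encodes, was at 104.7 ± 25.5 FPKM in the WT siblings and 68.1 ± 4.06 FPKM in the mutants and missed the threshold (log2 difference -0.59, adjusted p = 0.0568).

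The h3f3 genes encode the H3 variant that is laid down outside replication, and as a family they had the highest summed level of the histone members. Their 5 IDs summed to 2009, 2021 and 2536 FPKM in the WT siblings and to 1833, 1795 and 1859 FPKM in the mutants, with every mutant below every WT sibling. None of the 5 was called in limma, while 3 had an unadjusted p under 0.05. h3f3d, with the highest mean of all histones (684.7 FPKM over the 6 libraries), had 798.8, 728.7 and 782.8 FPKM in the WT siblings and 572.9, 622.5 and 602.9 FPKM in the mutants. Its groups did not overlap and its difference lay at the threshold (log2 difference -0.36, SE 0.0954, adjusted p = 0.0516). h3f3a and the h3f3b.1 copy ENSDARG00000033009 overlapped between the groups, with log2 differences of -0.073 and -0.074.

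The canonical H3 and H4 genes among the members were detected at low levels. Histone genes listed under names outside the rule, if any, are not counted here. hist2h3c had 2.49, 3.30 and 5.12 FPKM in the WT siblings and 1.09, 1.61 and 1.65 FPKM in the mutants, and it fell without overlap (log2 difference -0.89, SE 0.222, adjusted p = 0.0458). Of the hist1h4l copies, ENSDARG00000086555 was the highest, with 5.72, 4.89 and 3.09 FPKM in the WT siblings and 1.61, 1.08 and 0.294 FPKM in the mutants. It fell as well (log2 difference -1.51, SE 0.294, adjusted p = 0.0240), the other 3 tested copies were not called, and the 3 untested copies ranged from 0 to 1.62 FPKM. Summed over the 7 copies, hist1h4l was at 10.4, 9.19 and 7.99 FPKM in the WT siblings and at 3.68, 1.78 and 2.92 FPKM in the mutants. FPKM divides by the length of each copy, so this sum can still depend on how reads were split among them. Whether the libraries were selected for poly(A) RNA is not given in the sources used here, and the level of histone mRNAs without a poly(A) tail depends on it.

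**Figure D2:**
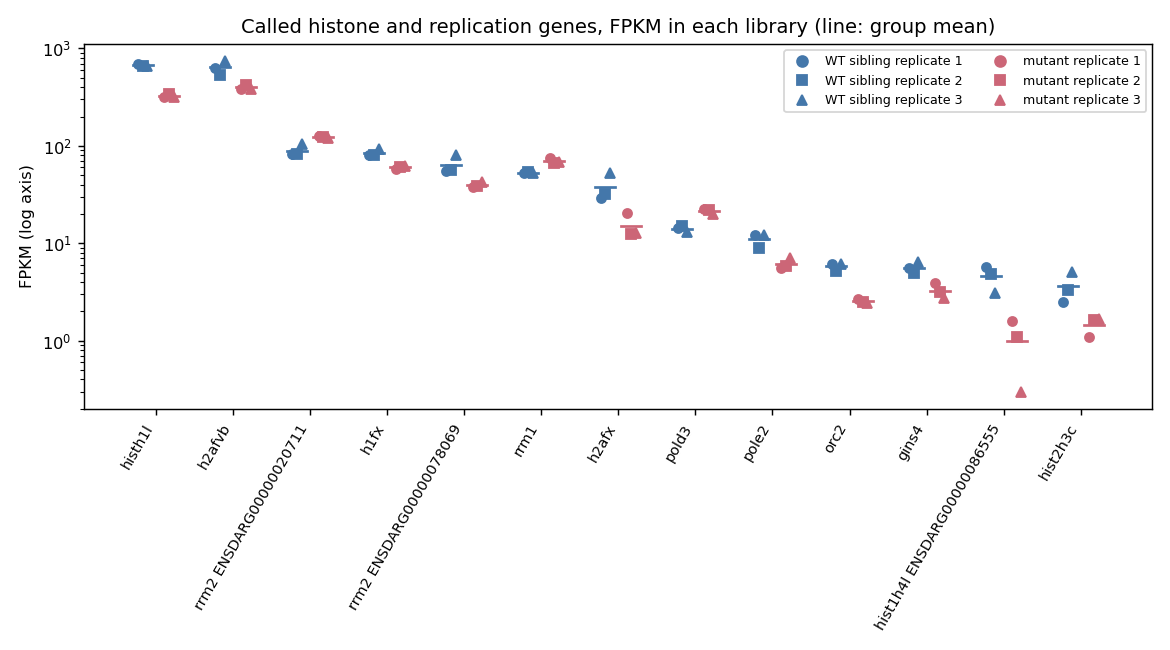
FPKM of the 13 called members in each library (log axis; circles, squares and triangles are replicates 1, 2 and 3, lines are group means). In each of the 10 members that fell, such as histh1l at 697, 658 and 659 against 319, 338 and 316 FPKM, all mutant points lie under all WT sibling points, and in the 3 that rose all lie above.

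Of the 49 replication members, all tested, 4 fell (8.16%, against 3.98% of all genes) and 3 rose (6.12%, against 8.23%). Their median difference was -0.030 (-0.19 relative to all genes), with 22 positive and 27 negative. Every mutant lay above every WT sibling in 14 of them, below in 11, and the groups overlapped in 24. Over all genes, 35.0% had every mutant above and 11.7% had every mutant below. The replication members summed to 1219, 1155 and 1302 FPKM in the WT siblings and to 1247, 1168 and 1156 FPKM in the mutants, which overlapped, and their share of total FPKM was 0.264% ± 0.00605 and 0.276% ± 0.0140. Without WT sibling replicate 3, 10 replication members were higher (20.4%, against 20.1% of all genes) and 7 were lower (14.3%, against 8.11%).

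Of the 6 ORC subunits, 1 fell. orc2 was measured at 6.14, 5.17 and 6.15 FPKM in the WT siblings and at 2.67, 2.48 and 2.45 FPKM in the mutants, a 2.30-fold fall with no overlap (log2 difference -0.95, SE 0.118, adjusted p = 0.00746). orc1, the largest ORC subunit, averaged 4.07 ± 0.348 FPKM in the WT siblings and 4.98 ± 0.244 FPKM in the mutants and was not called (log2 difference 0.24, adjusted p = 0.173). orc3, orc5 and orc6 overlapped, with log2 differences between -0.075 and 0.033, and orc4 was lower in every mutant without passing the test (log2 difference -0.48, adjusted p = 0.0861). The licensing factors that join ORC at origins were not called either. cdc6 had a log2 difference of -0.20 (adjusted p = 0.2502), cdt1 of -0.15 (adjusted p = 0.378) and gmnn, the inhibitor of Cdt1, of 0.10 (adjusted p = 0.580).

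None of the 6 core subunits of the MCM helicase was called in limma, and at an unadjusted p under 0.05 mcm7 alone differed. mcm2, mcm3, mcm4, mcm5 and mcm6 overlapped between the groups, with log2 differences between -0.15 and 0.023. Their 95% intervals ran from -0.43 at the lowest, for mcm2, to 0.28 at the highest, also for mcm2. mcm7 had 65.9, 55.0 and 45.7 FPKM in the WT siblings and 42.5, 42.1 and 33.7 FPKM in the mutants. Its groups did not overlap, but the difference was not called (log2 difference -0.48, SE 0.153, adjusted p = 0.0792), and it was called lower without WT sibling replicate 3 and after median-of-ratios scaling. Summed over mcm2 to mcm7, the helicase subunits averaged 230.1 ± 26.2 FPKM in the WT siblings and 207.6 ± 16.0 FPKM in the mutants.

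GINS is a ring of 4 subunits that joins Cdc45 and MCM in the active helicase. gins4 had 5.50, 4.91 and 6.46 FPKM in the WT siblings and 3.87, 3.17 and 2.75 FPKM in the mutants and fell without overlap (log2 difference -0.64, SE 0.1495, adjusted p = 0.0397), although rescaling to TPM ended the call. gins1 was at 7.26 ± 0.560 and 8.93 ± 0.786 FPKM, with every mutant above every WT sibling but no call (log2 difference 0.27, adjusted p = 0.134). cdc45 overlapped (log2 difference 0.11, adjusted p = 0.528), as did gins2, and gins3 was lower in every mutant without a call (log2 difference -0.30, adjusted p = 0.166).

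Within polymerase epsilon and within polymerase delta, subunits differed in direction, whereas the 4 polymerase alpha-primase members all had positive differences. pole2, the second subunit of polymerase epsilon, had 12.0, 8.90 and 12.3 FPKM in the WT siblings and 5.61, 5.77 and 7.08 FPKM in the mutants, so that it fell 1.80-fold with no overlap (log2 difference -0.75, SE 0.151, adjusted p = 0.0263). The catalytic subunit pole was instead at 3.10, 2.95 and 2.47 FPKM in the WT siblings and at 3.93, 3.76 and 4.02 FPKM in the mutants. Every mutant was thus above every WT sibling for pole, without a call (log2 difference 0.36, SE 0.120, adjusted p = 0.0869). pole4, a histone-fold subunit, was lower in every mutant and also missed the threshold (7.28 ± 1.59 against 4.36 ± 0.908 FPKM, log2 difference -0.62, adjusted p = 0.0638), and its partner pole3 overlapped.

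For polymerase delta, which copies the lagging strand, the accessory subunit pold3 rose. pold3 had 14.5, 14.9 and 12.96 FPKM in the WT siblings and 22.4, 22.1 and 20.0 FPKM in the mutants (log2 difference 0.57, SE 0.0943, adjusted p = 0.0165). No library of either group overlapped with the other group, and the mutant mean was 1.52 times the WT sibling mean. The catalytic subunit pold1 was at 10.1 ± 1.54 and 13.7 ± 0.664 FPKM and was not called (log2 difference 0.41, adjusted p = 0.0697). pola1, the catalytic subunit of polymerase alpha that starts each new strand, averaged 5.10 ± 1.76 FPKM in the WT siblings and 8.87 ± 0.416 FPKM in the mutants. WT sibling replicate 3 was the lowest library for pola1 at 3.15 FPKM, and the difference was not called with it (log2 difference 0.74, SE 0.218, adjusted p = 0.0660) and called without it. pola2 was higher in every mutant and missed the threshold (12.4 ± 1.48 against 16.7 ± 0.757 FPKM, log2 difference 0.41, adjusted p = 0.0522). prim1, the catalytic primase subunit, had a log2 difference of 0.18 (adjusted p = 0.243), and prim2 overlapped, with 0.029.

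The clamp and the enzymes that finish lagging-strand fragments showed no called difference in limma, and rfc1 alone had an unadjusted p under 0.05. pcna, the sliding clamp and a common marker of cycling cells, was the most abundant replication member, at 274.8, 257.5 and 308.5 FPKM in the WT siblings and 263.8, 234.0 and 228.3 FPKM in the mutants. Its groups overlapped (log2 difference -0.21, 95% interval -0.46 to 0.037, adjusted p = 0.194). rfc1, the large subunit of the clamp loader, was above the WT siblings in every mutant without a call (log2 difference 0.46, adjusted p = 0.0586), and rfc2 to rfc5 overlapped. fen1, the flap nuclease, and lig1, the ligase that seals the fragments, had log2 differences of 0.063 and -0.030. slbp, which binds the stem-loop of canonical histone mRNAs, averaged 48.7 ± 8.57 FPKM in the WT siblings and 43.2 ± 3.48 FPKM in the mutants and overlapped (log2 difference -0.16, adjusted p = 0.415).

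Ribonucleotide reductase makes deoxynucleotides from ribonucleotides with a large subunit (rrm1) and a small subunit (rrm2). rrm1 had 52.7, 53.6 and 52.9 FPKM in the WT siblings and 75.5, 66.4 and 68.4 FPKM in the mutants, and it rose without overlap (log2 difference 0.39, SE 0.0796, adjusted p = 0.0263). The rrm2 copy ENSDARG00000020711 rose too, from 81.6, 82.1 and 103.4 FPKM in the WT siblings to 124.9, 123.0 and 121.5 FPKM in the mutants (log2 difference 0.47, SE 0.108, adjusted p = 0.0372). The rrm2 copy ENSDARG00000078069 fell, from 54.5, 55.9 and 80.9 FPKM to 38.1, 39.1 and 42.7 FPKM (log2 difference -0.64, SE 0.155, adjusted p = 0.0431).

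The 2 rrm2 copies thus changed in opposite directions, and both carry the same gene name. Their sum was 136.1, 138.0 and 184.2 FPKM in the WT siblings and 163.0, 162.1 and 164.2 FPKM in the mutants, which overlapped. Under median-of-ratios scaling the rises of rrm1 and ENSDARG00000020711 were not called (adjusted p = 0.188 and 0.256). tyms, which makes thymidylate, was higher in every mutant (27.0 ± 1.65 against 32.5 ± 0.549 FPKM) and not called (log2 difference 0.26, adjusted p = 0.0713).

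**Figure D3:**
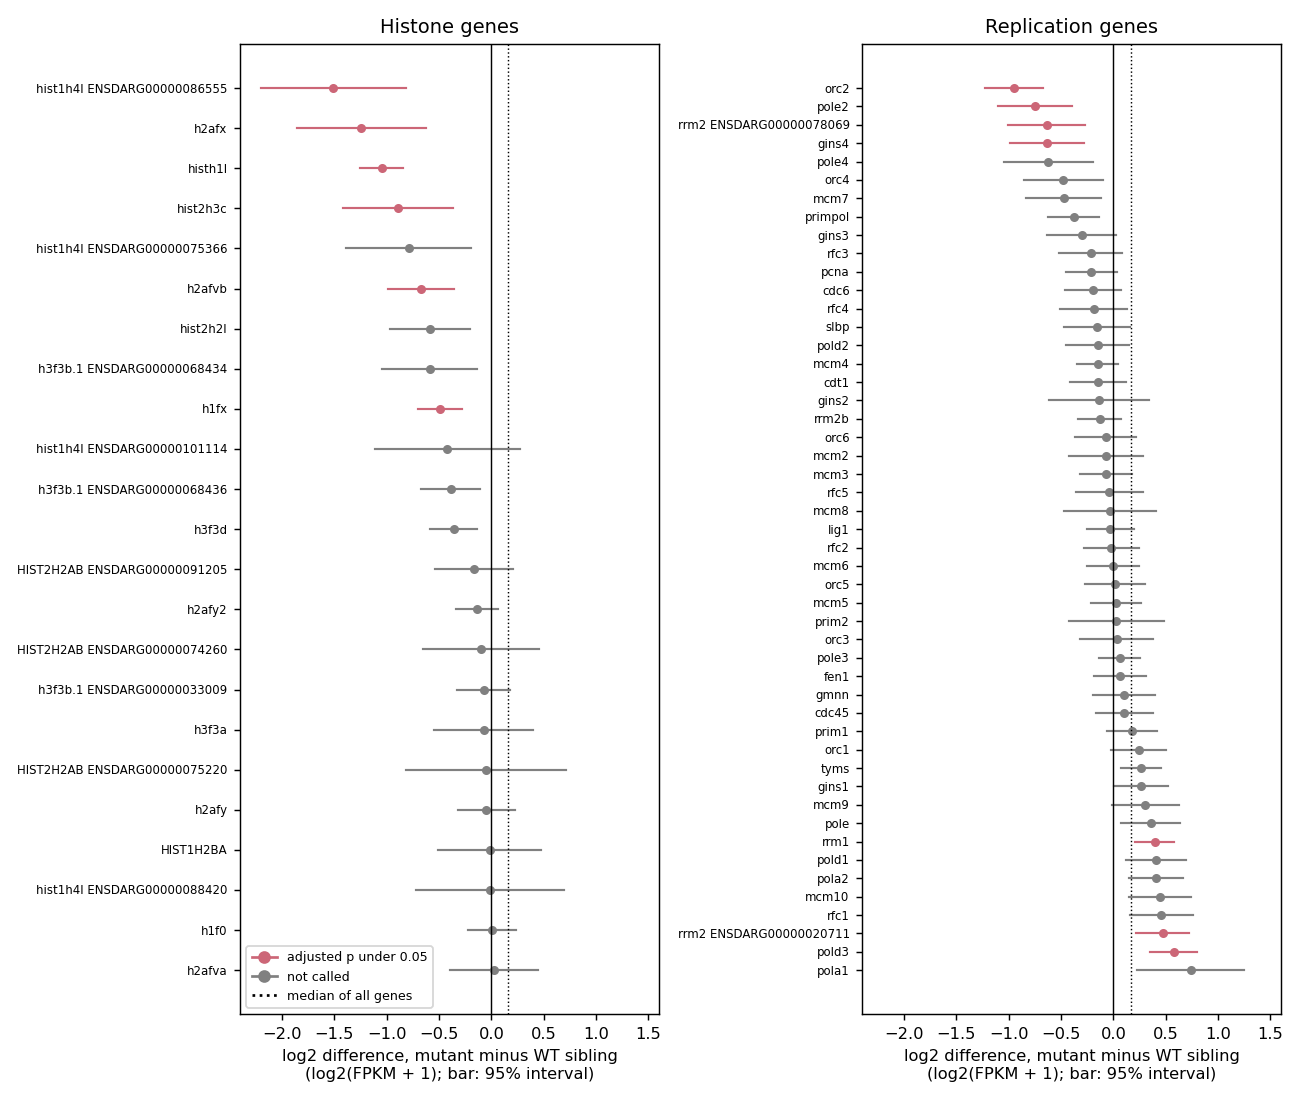
Log2 difference (mutant minus WT sibling, log2(FPKM + 1)) of the 23 tested histone members and the 49 replication members, with 95% intervals from limma; red marks called members and the dotted line the median of all genes, 0.16. Histones run from -1.51 to 0.023 and replication members from -0.95 to 0.74.

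Within a library, ratios of 2 members do not depend on the scaling of the whole library. The pairs were picked after the values above were seen, so the ratios describe those differences without a test. orc2 over orc1 was 1.47, 1.19 and 1.67 in the WT siblings and 0.538, 0.523 and 0.467 in the mutants. pole2 over pole was 3.88, 3.02 and 4.98 in the WT siblings and 1.43, 1.53 and 1.76 in the mutants. In both pairs the group ranges lay well apart, and the same held for gins4 over gins1 (0.677 to 0.826 against 0.285 to 0.430).

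For pold3 over pold2 the order was the opposite, with 1.54, 1.59 and 1.167 in the WT siblings and 2.27, 2.40 and 2.63 in the mutants. pold2 had a log2 difference of -0.15, whereas that of pold1 was 0.41, in the direction of pold3. pold3 over pold1 was not computed, so this ratio does not describe pold3 against the catalytic subunit. Among the linker histones, histh1l over h1f0 was 1.53, 1.35 and 1.22 in the WT siblings and 0.640, 0.679 and 0.648 in the mutants. h2afvb over h2afva was 7.08, 6.19 and 5.36 in the WT siblings and 3.56, 4.20 and 3.68 in the mutants. The rrm2 copy ENSDARG00000020711 over ENSDARG00000078069 went from between 1.28 and 1.495 in the WT siblings to between 2.85 and 3.28 in the mutants. mcm7 over mcm5 was 1.06 to 1.25 in the WT siblings and 0.735 to 0.861 in the mutants. The pair gins4 over gins2, by contrast, overlapped between the groups.

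**Figure D4:**
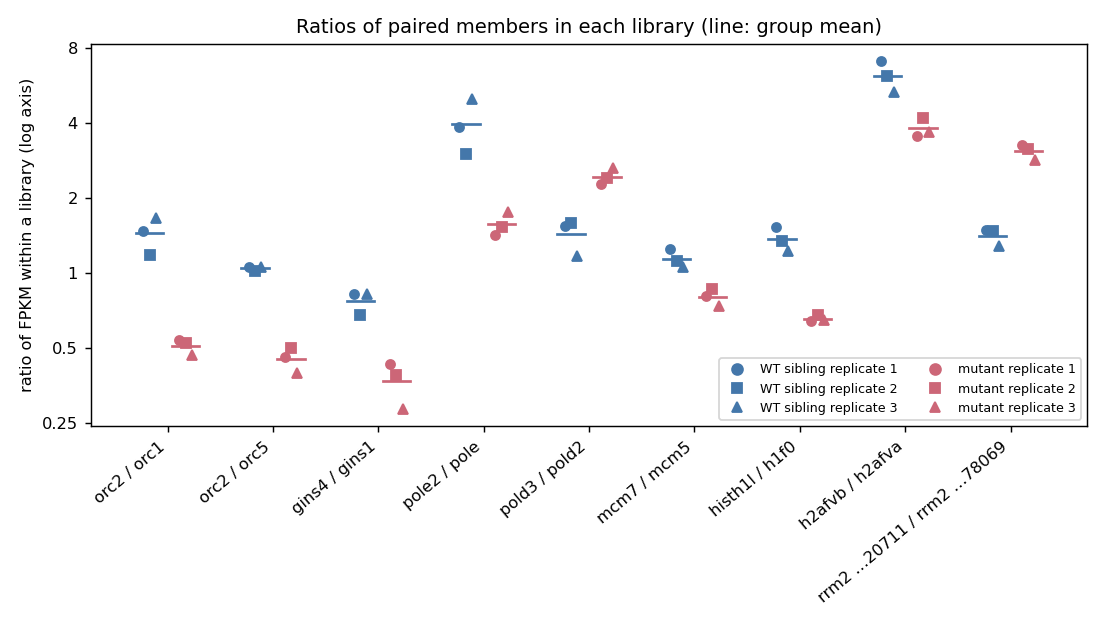
Ratio of the FPKM of 2 members within each library for 9 pairs (log axis; circles, squares and triangles are replicates 1, 2 and 3, lines are group means). The pairs were chosen after the values were seen, and the groups do not overlap in any of them, with orc2 over orc1 at 1.19 to 1.67 in WT siblings and at 0.467 to 0.538 in mutants.

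Of the 60 tested members that were not called, 30 had a 95% interval of the log2 difference that stayed within 0.5 of 0. A further view of the threshold is that 18 of the 60 had an unadjusted p under 0.05, with 9 positive and 9 negative differences. The shares of all genes were not computed for this interval or for an unadjusted p alone. These counts, and the other counts given at an unadjusted p alone, are therefore not compared with all genes. mcm3ap, the member matched by name only, had a log2 difference of 0.46 (adjusted p = 0.0920).

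Other genes of the same pathways were taken from lists of known factors, and their counts are read against the 8.23% of all genes that rose and the 3.98% that fell (20.1% and 8.11% without WT sibling replicate 3). Of 33 further replication and nucleotide supply genes, 3 rose (9.09%) and 0 fell in limma, a share that rose near that of all genes, with a median difference of 0.19 (0.022 above all genes). With WT sibling replicate 3 left out, 11 rose and 1 fell. The 3 that rose with all libraries were rpa1, a subunit of the single-strand binding protein RPA (45.3 ± 0.971 to 54.8 ± 0.735 FPKM, adjusted p = 0.0495), atad5b (0.568 ± 0.0707 to 1.11 ± 0.0606 FPKM, adjusted p = 0.0433), a relative of the PCNA unloader ATAD5, and hells, a chromatin remodeler of the replication phase (15.1 ± 1.16 to 21.0 ± 0.795 FPKM, adjusted p = 0.0263).

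Of 35 regulators of the G1 to S transition, 3 rose (8.57%) and 1 fell (2.86%), which is near the shares of all genes, and their median of 0.090 was -0.074 relative to all genes. When WT sibling replicate 3 was left out, 6 rose and 1 fell. The transcription factors e2f4 and e2f8 rose, with log2 differences of 0.39 and 0.47 (adjusted p = 0.0394 and 0.0387), and so did the cyclin ccnd2b, with 0.93 (adjusted p = 0.0359). ccnd2b was low, at 1.12, 0.609 and 0.206 FPKM in WT sibling replicates 1 to 3 and at 1.786, 2.179 and 2.225 FPKM in the mutants. cdk4, a kinase that partners D-type cyclins, had 11.2, 9.64 and 7.59 FPKM in the WT siblings and 6.18, 4.83 and 3.83 FPKM in the mutants, and fell without overlap (log2 difference -0.82, SE 0.189, adjusted p = 0.0380).

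Of 27 histone chaperones and histone mRNA processing factors, 6 rose (22.2%) and 1 fell (3.70%), and the median was 0.13. The counts were 10 and 1 without WT sibling replicate 3. The FACT subunits supt16h and ssrp1a, which carry H2A and H2B around polymerases, rose, with supt16h at 24.6, 22.6 and 14.8 FPKM in the WT siblings and 40.5, 41.7 and 38.1 FPKM in the mutants (log2 difference 0.95, SE 0.177, adjusted p = 0.0218). npat, the factor that drives canonical histone gene transcription in mammals, rose from 4.89 ± 0.404 to 8.19 ± 0.458 FPKM (log2 difference 0.64, SE 0.108, adjusted p = 0.0172). daxx and atrx, which place the replication-independent H3 variant, rose as well, with log2 differences of 0.46 and 0.49, as did nap1l4b with 0.49. asf1bb, an H3-H4 chaperone, fell from 26.7 ± 0.996 to 20.7 ± 1.76 FPKM (log2 difference -0.35, SE 0.0915, adjusted p = 0.0488).

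Markers of mitosis and of cell types were measured in the same libraries. Of 27 mitosis markers tested, 4 rose (14.8%) and 0 fell in limma (6 and 1 at an unadjusted p under 0.05), and the median was 0.092 (0.16 for all genes). The counts were the same without WT sibling replicate 3, where 20.1% of all genes were higher. Their summed level ran from 680.1 to 701.4 FPKM in the WT siblings and from 713.7 to 756.3 FPKM in the mutants, with none listed at 0. mki67, the Ki-67 antigen of cycling cells, had 56.8, 54.7 and 44.6 FPKM in the WT siblings and 76.3, 78.1 and 77.2 FPKM in the mutants (log2 difference 0.57, SE 0.104, adjusted p = 0.0212), and tpx2, cenpf and prc1b rose as well. cdk1, ccnb1, ccnb2 and ccnb3, which are also part of the sum, overlapped between the groups, with log2 differences between -0.16 and -0.020. Every mutant lay above every WT sibling in 9 of the 27 markers and below in 1 (35.0% and 11.7% over all genes). The marker below was aurkb, which was not called (43.6 ± 5.67 to 32.9 ± 4.58 FPKM, log2 difference -0.40, adjusted p = 0.0886).

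Of 14 erythroid markers, 9 fell (64.3%) and 0 rose in limma (10 and 0 at an unadjusted p under 0.05, median -0.66), and 11 fell without WT sibling replicate 3. Their summed level ran from 6274 to 8919 FPKM in the WT siblings and from 3127 to 3146 FPKM in the mutants, with none listed at 0. alas2, the first enzyme of heme synthesis in red cells, fell from 86.2 ± 6.17 to 52.1 ± 1.63 FPKM (log2 difference -0.71, SE 0.0833, adjusted p = 0.00644), as did the anion exchanger slc4a1a and the globin genes hbbe1.1, hbbe1.3, hbbe2, hbae1, hbae1.3, hbae3 and hbae5. hbbe1.2 was lower in every mutant without a call (log2 difference -0.49, adjusted p = 0.109). The groups overlapped for gata1a, klf1, epb41b and cahz, with log2 differences of 0.125, 0.068, -0.16 and -0.074. gata1a and klf1 were low, with group means between 1.33 and 1.73 FPKM. Of the 15 larval tissue markers, 4 fell (26.7%; ins, try, lyz and again hbae1) and 2 rose (13.3%; cryaa and elavl3), with a median of -0.35 and sums of 16502 to 18878 FPKM in the WT siblings and 12527 to 15012 FPKM in the mutants. In the fit without WT sibling replicate 3, 10 fell and 3 rose. With all libraries, the most abundant larval tissue markers (actc1b, mylpfa, krt4 and ckma), which made up most of these sums, were not called. Their log2 differences lay between -0.41 and -0.11. crygmx, a lens marker like cryaa, was lower in every mutant without a call (log2 difference -0.42, adjusted p = 0.111). The medians of the erythroid and larval tissue lists lay below that of all genes, as did the histone median. Called larval tissue markers went both ways, and the part of these lists in the histone result was not tested. Of 5 blood progenitor markers tested none was called in limma (1 was higher without WT sibling replicate 3), and their sums overlapped (24.6 to 27.5 FPKM in the WT siblings and 25.4 to 27.7 FPKM in the mutants).

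Gene position and length were compared with the RefSeq table, in which 60 of the 76 members were found. Among the members found, those on the chromosome of p2ry11 were h3f3a, mcm5 and pold1. None of them was called with all libraries, and pold1 was called higher without WT sibling replicate 3. Members with a shared name were not placed, among them both rrm2 copies and the called hist1h4l copy. Among all genes, those spanning a longer stretch of the genome had higher differences, with medians from 0.0063 in the bin with the shortest spans to 0.27 in the bin with the longest, of 4 bins of nearly equal gene number. These medians were 0.058 and 0.16 without WT sibling replicate 3. Over the 47 replication members with a span, the Spearman rho of span and log2 difference was 0.35, and 0.21 without WT sibling replicate 3. These genes share the same 6 libraries, so the values are a description, and the part of span in the differences was not tested. For histones no correlation was computed, since 12 of 26 had a span. The called histones histh1l (1371 bp), h1fx (1312 bp), h2afx (617 bp) and hist2h3c (500 bp) lay in the bin with the shortest spans. h2afvb (10117 bp) lay in the next bin, and the called hist1h4l copy had no span. In the bin with the shortest spans, 241 of 3931 genes were higher and 284 lower, against 1517 and 733 over all genes tested. The shares over all genes are therefore not those of genes this short.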

How the data were processed

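RNA was sequenced from 3 libraries of p2ry11 mutants and 3 of WT siblings at 3 dpf. The authors trimmed reads with cutadapt 1.17, checked them with FastQC 0.11.7, aligned them with HISAT2 2.1.0 and quantified genes with StringTie 1.3.3, and deposited FPKM per gene (the header names the unit in 4 files and leaves it blank in the other 2, whose values have the same range). The study's methods name the assembly GRCz11 and the submitters' processing notes name GRCh37; the IDs are zebrafish. Strand and poly(A) selection are not given in the sources used here. FPKM corrects for transcript length and library total, so abundant transcripts that change shift all others. Read counts and depth are unknown, and no counting interval is given. No column of the authors' own comparisons was used.

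Deposited FPKM were transformed to log2(FPKM + 1), genes with a mean of at least 0.5 FPKM were kept (639 were not tested), and limma 3.58.1 (R 4.3.3; lmFit, eBayes with trend) compared mutants with WT siblings, with Benjamini-Hochberg adjustment over 18432 genes. The method was tested on simulated data. Single values were compared with an exact permutation test. The labels do not say that pools came from separate clutches, so p-values cover the spread between these libraries. Members, lists and alternatives were chosen with earlier results of these data known. Named were all called members, a set of core replication factors, the 3 most abundant histones per class, called genes of the other lists reported and p2ry11; other members are named where a complex is described, and were chosen after their values were seen. Alternatives were pseudocounts of 0.1 and 0.5, no filter or a mean of at least 1 FPKM, TPM, median-of-ratios and quantile scaling, a replicate block and leaving out each library. A planned search of promoter motifs was not run, and a list of neural progenitor genes is not reported here. Gene span and neighbours were looked up by symbol in RefSeq (assembly GRCz12tu, which differs from that of the files). Figures were drawn with matplotlib 3.10.9 under Python 3.11.15.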

Additional observations from a re-analysis of the deposited data

How the results depend on the processing

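No called member changed direction under any alternative. Over all genes, 1517 rose and 733 fell (67.4% of calls higher); after median-of-ratios scaling 668 rose and 1050 fell (38.9% higher), after quantile normalization 980 rose and 1310 fell (42.8% higher), after rescaling to TPM 1768 rose and 526 fell (77.1% higher), and with the replicate block 672 rose and 404 fell. The median difference of all genes was 0.28 after TPM, 0.012 after median-of-ratios scaling and 0.0056 once quantiles were equalized. The members that rose were all replication genes, 5 after TPM, 1 after median-of-ratios scaling and 1 with the replicate block; with the block 5 histones and 4 replication members fell, and 7 replication members fell after quantile normalization. The histone median was -0.26 after TPM, -0.32 after quantile normalization and -0.49 after median-of-ratios scaling. The replication median was 0.074 after TPM, -0.12 after quantile normalization and -0.20 after median-of-ratios scaling. The cause of these shifts was not tested. A pseudocount of 0.1 ended the calls of hist2h3c and of an rrm2 copy. Leaving out 1 library at a time gave 117 to 3712 genes higher and 76 to 1495 lower, 0 to 11 members higher and 1 to 17 lower, 0 to 1 histones higher and 1 to 10 lower, 0 to 10 replication members higher and 0 to 7 lower, with medians of -0.40 to -0.27 for histones and -0.066 to 0.014 for replication members. Without WT sibling replicate 1, mutant replicate 1 or mutant replicate 2 the calls were histh1l and orc2, without mutant replicate 3 histh1l alone, and without WT sibling replicate 2, 11 members. The replicate numbers share only a number: same-numbered libraries correlated at 0.016, 0.072 and 0.138 in their deviations from the group means, and not every library correlated best with its own number. The replicate block ended the calls of gins4, h2afvb, rrm1 and an rrm2 copy and added mcm7.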

Other observations

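Of 10 markers of postmitotic neurons, 1 rose (8.23% of all genes did) and 0 fell in limma, with the same counts without WT sibling replicate 3. This was elavl3, an RNA-binding protein of neurons, which rose from 54.8 ± 5.18 to 81.0 ± 6.03 FPKM (SD, n = 3 each; adjusted p = 0.0203 in limma). The median log2 difference of the list was 0.17, against 0.16 for all genes, and -0.058 without WT sibling replicate 3. Of 14 targets of p53, the regulator of the DNA damage response, 0 rose and 1 fell (7.14%, against 3.98% of all genes), an ID that the files leave without a name (ENSDARG00000100513, 41.8 ± 8.89 to 24.96 ± 2.04 FPKM, adjusted p = 0.0307), and the summed level of the list was 438.6 to 502.0 FPKM in the WT siblings and 419.0 to 429.8 FPKM in the mutants. With WT sibling replicate 3 left out, 4 rose (28.6%, against 20.1% of all genes) and 1 fell.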
